A study of Homo sapiens with 18 samples.

Results

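The 49 genes described here make and feed the DNA replication fork. They were taken from the replication and nucleotide supply pathway by name, with earlier results of these data known. Each is represented by the brightest of the probe sets that map to it alone. All 49 were found, each with 1 such probe set, among 15529 genes tested. They comprise 11 genes of origin licensing, 7 of helicase activation, 8 of the DNA polymerases and primase, 10 of the sliding clamp, its loader, the lagging strand and RPA, 4 of nucleotide supply, 5 of chromatin assembly and methylation behind the fork, and 4 of fork protection, licensing control and cohesion. RNA came from U-87MG, an established human glioblastoma line, and was measured on 18 Affymetrix arrays in 6 groups of 3. All cells were stable lentiviral lines grown under puromycin selection and cultured for 120 h. The cells carried an empty vector or the same vector with IL4I1, the gene of an L-amino acid oxidase that cells secrete, each combined with a control hairpin (shCtrl) or with 1 of 2 hairpins against AHR, the aryl hydrocarbon receptor (shAHR1 and shAHR2). The groups were therefore empty vector with shCtrl, with shAHR1 and with shAHR2, and IL4I1 with shCtrl, with shAHR1 and with shAHR2. Replicates are called independent experiments in the study's description, but the labels do not give the number of independent infections, so the spread between replicates may not include that between separately made lines.

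Replication starts when the origin recognition complex, CDC6 and CDT1 load the MCM2-7 ring onto DNA in G1. In S phase CDC45 and the GINS complex join the ring to form the CMG helicase, primase and the polymerases copy the strands, and ribonucleotide reductase, thymidylate synthase and thymidine kinase supply the deoxynucleotides. Many of these genes are known targets of E2F transcription factors and are transcribed around the entry into S phase, so their RNA is abundant in dividing cultures.

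Values are log2 levels after RMA, in which the background is corrected, the arrays are given 1 distribution and the probes of a set are summarised, so that a difference of 1 is a doubling and a change common to every transcript would not show. Array medians were 6.46 to 6.53, arrays correlated at 0.865 to 0.954, and 0 pairs of arrays were identical. Replicate 2 of the shCtrl cells with empty vector stood apart, with the widest spread of relative log expression (interquartile range 0.529; 0.319 to 0.472 elsewhere). AHR lay at 9.84 to 10.33 on the shCtrl arrays and at 7.45 to 8.16 on the hairpin arrays, and IL4I1 at 5.27 to 6.43 without and 12.67 to 13.01 with its vector. The glioma line markers VIM and CD44 had group means of 12.04 to 12.39 and 10.7 to 11.2, whereas GFAP, a marker of astrocytes, lay at 5.80 to 6.61, close to the array median. The other measured glial and glioma line markers were also far below VIM and CD44. SLC1A3 had group means of 6.88 to 8.65 and PDGFRA of 4.92 to 7.51. NES lay at 5.93 to 6.45, OLIG2 at 5.11 to 6.36 and AQP4 at 5.49 to 6.54.

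Promoters of these genes are shown because the members moved together, and the 4 printed belong to genes whose fall in shCtrl cells was called whichever of the 6 arrays was left out. Each runs 5′ to 3′ from 250 bases before to 50 after the start of the gene, from RefSeq on build GRCh38.p14. Capitals mark matches to an E2F motif. Only promoters that held such a match were printed, so the matches in these 4 do not show how common the motif is.
MCM3 (chr6:52284693-52284992, minus strand): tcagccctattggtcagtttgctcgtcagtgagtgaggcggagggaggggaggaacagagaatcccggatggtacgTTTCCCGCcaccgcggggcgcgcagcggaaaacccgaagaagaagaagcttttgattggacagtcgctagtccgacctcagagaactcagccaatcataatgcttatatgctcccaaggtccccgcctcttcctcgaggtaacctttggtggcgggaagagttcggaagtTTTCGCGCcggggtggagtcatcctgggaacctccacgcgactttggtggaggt
DTL (chr1:212035498-212035797, plus strand): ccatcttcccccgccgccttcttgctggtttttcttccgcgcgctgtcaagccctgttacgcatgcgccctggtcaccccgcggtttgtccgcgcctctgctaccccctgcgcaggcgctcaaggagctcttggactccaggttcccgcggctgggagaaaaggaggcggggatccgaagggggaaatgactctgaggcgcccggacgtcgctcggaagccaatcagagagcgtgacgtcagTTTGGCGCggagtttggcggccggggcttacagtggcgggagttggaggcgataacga
RFC3 (chr13:33817899-33818198, plus strand): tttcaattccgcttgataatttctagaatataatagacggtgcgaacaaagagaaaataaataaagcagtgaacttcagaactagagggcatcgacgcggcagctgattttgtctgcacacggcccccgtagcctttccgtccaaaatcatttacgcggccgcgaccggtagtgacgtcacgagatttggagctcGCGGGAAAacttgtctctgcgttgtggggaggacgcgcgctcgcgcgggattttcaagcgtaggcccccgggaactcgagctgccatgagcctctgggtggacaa
POLA2 (chr11:65261712-65262011, plus strand): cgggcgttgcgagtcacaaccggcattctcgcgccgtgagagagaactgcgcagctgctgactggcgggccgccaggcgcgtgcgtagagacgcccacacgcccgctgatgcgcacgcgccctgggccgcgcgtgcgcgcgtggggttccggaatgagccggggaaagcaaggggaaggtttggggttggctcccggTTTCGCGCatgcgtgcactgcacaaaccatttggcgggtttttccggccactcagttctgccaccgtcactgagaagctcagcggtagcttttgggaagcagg
The first capital lies 174 and 4 bases upstream of the start in MCM3, 8 in DTL, 55 in RFC3, where the match is on the opposite strand, and 53 in POLA2.

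The E2F motif was searched as TTTCGCGC, TTTGGCGC or TTTCCCGC on both strands, and 42 of the 49 members had a promoter in the table. It was found in 25 of these 42 genes (59.5%), against 588 of 12264 tested genes (4.79%). By promoter, 26 of 55 member promoters (47.3%) held it. The share was 3.51% of the 17837 promoters of tested genes and 2.74% of all 35114 promoters of the table. CCAAT, the box bound by NF-Y, was found in 27 of 42 (64.3%) against 42.4% of tested genes. TTTGAA, the CHR element known from genes expressed in G2 and mitosis, was found in 1 of 42 (2.38%) against 14.4%. GCGTG, the core that AHR binds with ARNT, was found in 25 of 42 members (59.5%) and in 55.0% of tested genes. A GCGTG match may share bases with an E2F match. Among the 33 members with a promoter that fell with IL4I1 in the mean over the hairpin backgrounds, 20 held the E2F motif and 23 the AHR core, and among the 9 that were not called the counts were 5 and 2. These matches describe letters in a window, and binding was not measured.

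RNA of most of the replication genes was lower in cells with IL4I1. In the mean over the 3 hairpin backgrounds, each IL4I1 group against the empty vector group with the same hairpin, 38 of 49 members fell and 0 rose, where a gene was called at a limma adjusted p under 0.05 over all 15529 genes. Of all tested genes, 7.21% fell by the same rule. The median member change was -0.99 on the log2 scale, and all 49 estimates were below 0. In 19 members all 9 arrays with IL4I1 lay below all 9 without it, against 1.06% of all genes, and in the other 30 the arrays overlapped. In bulk RNA, fewer cells in S phase and less RNA per cell cannot be told apart.

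**Figure D1:**
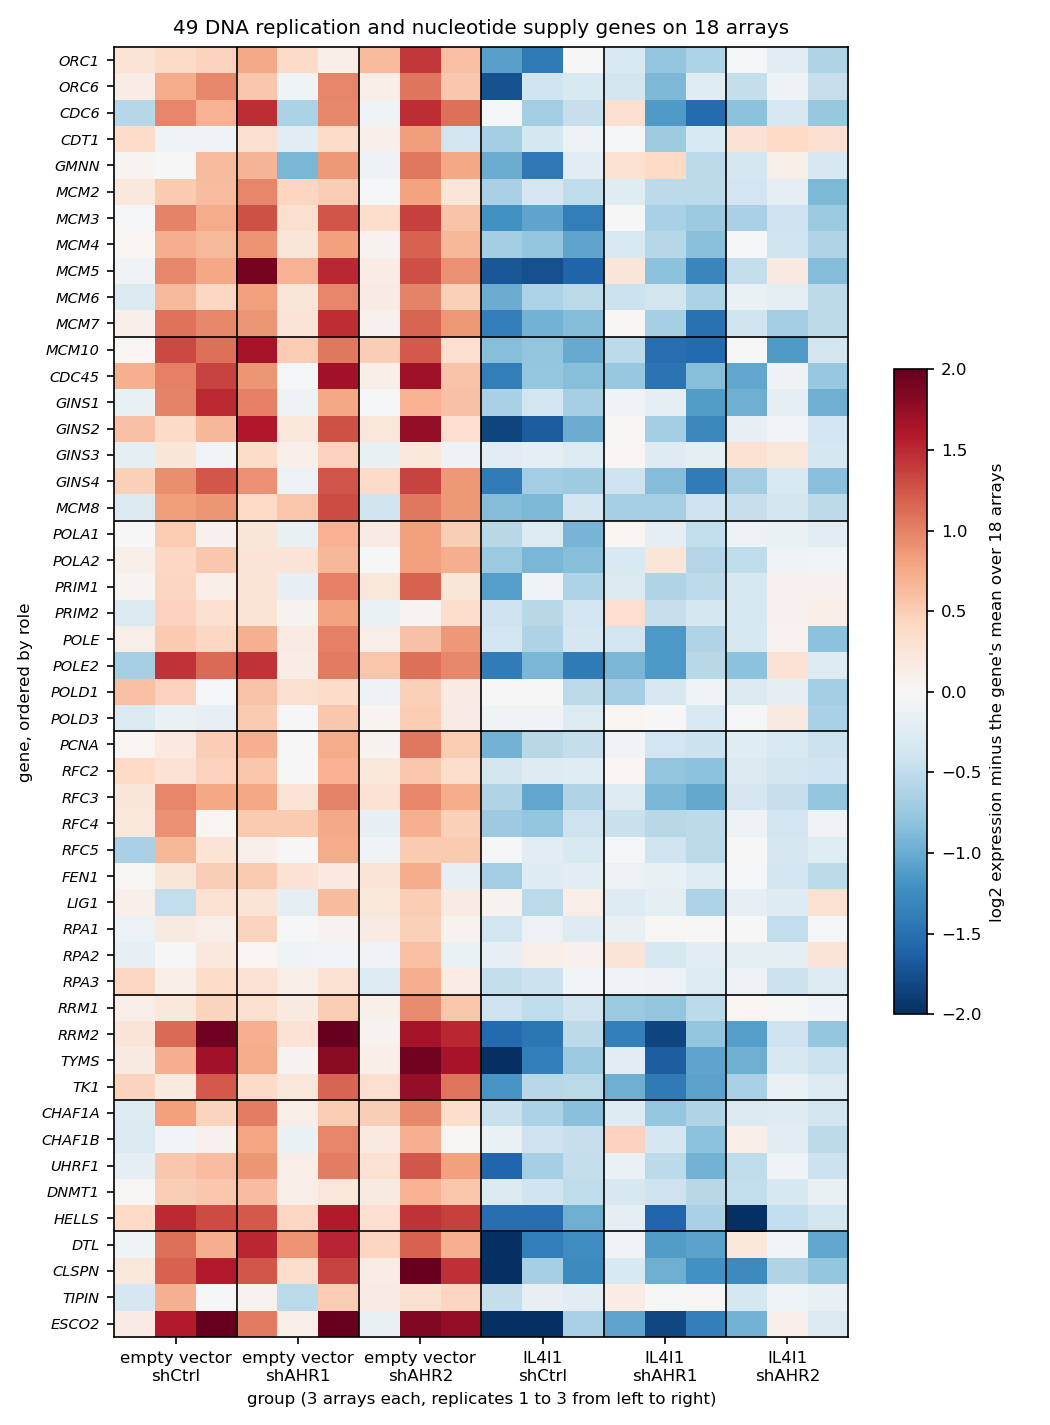
Level of each of the 49 genes on each of the 18 arrays, as the log2 difference from the gene's mean over all arrays, with genes in rows ordered by role, arrays in columns ordered by group, and colours that saturate at 2 log2 units. The 9 columns with IL4I1 are mostly below the gene mean and the 9 without it mostly above, and 38 of the 49 genes fell in the mean over backgrounds.

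Of the 11 licensing genes, 9 fell in the mean over backgrounds and 8 in the shCtrl background, among them all 6 subunits of the MCM2-7 ring in both. MCM3, a ring subunit, read 7.22, 8.24 and 7.99 on the 3 shCtrl arrays without IL4I1 and 6.03, 6.19 and 5.85 on the 3 with it. The groups did not overlap, and MCM3 fell by 1.79 ± 0.32 (SE; limma adjusted p = 0.0051). MCM5, which forms part of the gate at which the ring opens, read 7.20, 8.23 and 8.05 on the 3 shCtrl arrays without IL4I1 and 5.57, 5.52 and 5.68 on the 3 with it. Its 3 IL4I1 arrays lay within a narrow band below all of the others, and it fell by 2.24 ± 0.41 on the log2 scale (adjusted p = 0.0066).

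CDC6, the loader that recruits the ring to the origin, read 5.01, 6.55 and 6.27 on the 3 shCtrl arrays without IL4I1 and 5.54, 4.89 and 5.11 on the 3 with it. The groups overlapped through replicate 1 of the empty vector cells, and its change in shCtrl cells was -0.77 ± 0.57 (adjusted p = 0.51). Over the 3 backgrounds CDC6 fell by 1.20 ± 0.33 (adjusted p = 0.022). The origin recognition subunits ORC1 and ORC6 fell by 1.12 ± 0.18 and 1.11 ± 0.21 in that mean, and their 9 IL4I1 arrays lay below the 9 others. CDT1, the partner of CDC6 in loading, and GMNN, its inhibitor geminin, were not called, with changes of -0.27 ± 0.16 and -0.67 ± 0.25 (adjusted p = 0.31 and 0.097).

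The 7 genes grouped under helicase activation were 6 that build or activate the replicative helicase and MCM8, a related helicase of recombination repair. Of the 7, 6 fell in the mean over backgrounds, MCM8 among them, and 4 fell in shCtrl cells. GINS4, a GINS subunit, read 5.41, 5.87 and 6.18 on the 3 shCtrl arrays without IL4I1 and 3.54, 4.23 and 4.23 on the 3 with it. The groups were separate by more than the spread within either, and GINS4 fell by 1.82 ± 0.35 (adjusted p = 0.0089). GINS2, another subunit, read 5.35, 5.15 and 5.43 on the 3 shCtrl arrays without IL4I1 and 2.92, 3.10 and 3.77 on the 3 with it and fell by 2.04 ± 0.42 (adjusted p = 0.012). The groups of GINS2 did not overlap either. The remaining GINS subunit named here, GINS3, read 6.04, 6.47 and 6.17 on the 3 shCtrl arrays without IL4I1 and 5.997, 6.04 and 5.95 on the 3 with it, and its change was -0.23 ± 0.18 (adjusted p = 0.54). These 6 values did not overlap by group, yet the difference was within the error of the fit, and in the mean over backgrounds it was -0.20 ± 0.11 (adjusted p = 0.26).

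CDC45, which holds GINS to the ring, fell by 1.77 ± 0.24 in the mean over backgrounds, and MCM10, which activates the assembled helicase, by 1.73 ± 0.23 (adjusted p = 0.00017 and 0.00013). Of the 11 subunits of the CMG helicase, 10 fell in that mean, and GINS3 was the exception. MCM8 fell by 1.16 ± 0.21. In 7 members, ORC1, MCM10, GINS2, GINS4, POLE2, HELLS and CLSPN, at least 1 group mean with IL4I1 was 4.51 or less, in the lowest 1% of all group means, and the size of their changes rests on these low levels.

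Among the 8 polymerase and primase genes, 6 fell in the mean over backgrounds and 2 in shCtrl cells. POLA2, the regulatory subunit of polymerase alpha, read 6.97, 7.27 and 7.39 on the 3 shCtrl arrays without IL4I1 and 6.11, 5.94 and 6.004 on the 3 with it. The 3 shCtrl arrays with IL4I1 were lower than the 3 without, and POLA2 fell by 1.19 ± 0.24 (adjusted p = 0.011). POLE2, a subunit of the leading strand polymerase epsilon, read 4.30, 6.41 and 6.10 on the 3 shCtrl arrays without IL4I1 and 3.57, 4.05 and 3.56 on the 3 with it. Replicate 1 without IL4I1 was far below the other two but still above the IL4I1 arrays, and POLE2 fell by 1.88 ± 0.45 (adjusted p = 0.027).

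POLD3, an accessory subunit of the lagging strand polymerase delta, read 7.06, 7.21 and 7.19 on the 3 shCtrl arrays without IL4I1 and 7.25, 7.27 and 7.08 on the 3 with it. The groups overlapped, with a difference of 0.05 ± 0.21 and a 95% interval of -0.39 to 0.49 (adjusted p = 0.93). In the mean over backgrounds the catalytic subunits POLA1, POLE and POLD1 fell by 0.64 ± 0.14, 1.01 ± 0.16 and 0.62 ± 0.13. Of the primase pair, PRIM1, the catalytic subunit, fell by 0.75 ± 0.18, and PRIM2, the large subunit, was not called at -0.42 ± 0.14 (adjusted p = 0.01 and 0.066). POLE was the member of this group whose 9 IL4I1 arrays all lay below the 9 others.

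The clamp, loader, lagging strand and RPA genes varied in their response. In the mean over backgrounds 6 of 10 fell, with a median change of -0.54, and in shCtrl cells 3 did. RFC3, a small subunit of the clamp loader, read 6.75, 7.48 and 7.28 on the 3 shCtrl arrays without IL4I1 and 5.91, 5.47 and 5.90 on the 3 with it. These groups did not overlap, and RFC3 fell by 1.41 ± 0.26 (adjusted p = 0.0064). RFC4, another small subunit, read 7.56, 8.24 and 7.36 on the 3 shCtrl arrays without IL4I1 and 6.61, 6.54 and 6.92 on the 3 with it, again without overlap, and fell by 1.03 ± 0.23 (adjusted p = 0.019). RPA2, the middle subunit of the single-strand binding protein RPA, read 6.40, 6.58 and 6.77 on the 3 shCtrl arrays without IL4I1 and 6.40, 6.70 and 6.66 on the 3 with it. The groups were intermixed, with a difference of 0.0034 ± 0.21 and a 95% interval of -0.44 to 0.44.

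Of the RPA trimer, only RPA3 was called in the mean over backgrounds, where it fell by 0.50 ± 0.12, while RPA1 and RPA2 differed by -0.31 ± 0.10 and -0.08 ± 0.12 (adjusted p = 0.056 and 0.74). PCNA, the sliding clamp, fell by 0.85 ± 0.14 and FEN1, the flap nuclease that trims Okazaki fragments, by 0.58 ± 0.13. LIG1, the ligase that joins those fragments, was not called at -0.34 ± 0.15 (adjusted p = 0.16). Among the small loader subunits RFC2, RFC3 and RFC4 fell by 0.77 ± 0.12, 1.34 ± 0.15 and 0.89 ± 0.13, and RFC5 was not called at -0.47 ± 0.16 (adjusted p = 0.075). RFC3 had the lowest adjusted p of all 49 members in the mean (adjusted p = 3.7e-05).

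All 4 nucleotide supply genes fell, both in shCtrl cells and in the mean over backgrounds, and in each of them the 9 arrays with IL4I1 lay below the 9 without. RRM2, the S phase subunit of ribonucleotide reductase, read 7.90, 8.78 and 9.60 on the 3 shCtrl arrays without IL4I1 and 6.09, 6.20 and 7.13 on the 3 with it. The groups were apart although the replicates within each spread by more than 1 log2 unit, and RRM2 fell by 2.29 ± 0.54 (adjusted p = 0.023). TYMS, which makes thymidylate, read 7.30, 7.83 and 8.79 on the 3 shCtrl arrays without IL4I1 and 4.97, 5.75 and 6.38 on the 3 with it and fell by 2.27 ± 0.54 (adjusted p = 0.026). TK1, the cytosolic thymidine kinase of the salvage route, read 7.16, 6.89 and 7.93 on the 3 shCtrl arrays without IL4I1 and 5.53, 6.16 and 6.17 on the 3 with it and fell by 1.38 ± 0.35 (adjusted p = 0.034). RRM1, the large reductase subunit, which is less tied to S phase than RRM2, fell by 0.76 ± 0.10 in the mean over backgrounds, where RRM2 fell by 2.19 ± 0.31.

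Chromatin genes behind the fork fell in 4 of 5 cases in the mean over backgrounds and in 3 in shCtrl cells. HELLS, a remodeller that aids DNA methylation, read 5.80, 6.89 and 6.70 on the 3 shCtrl arrays without IL4I1 and 3.87, 3.87 and 4.41 on the 3 with it. The groups did not overlap, and HELLS fell by 2.41 ± 0.50 (adjusted p = 0.013). DNMT1, the maintenance methyltransferase, read 7.96, 8.42 and 8.46 on the 3 shCtrl arrays without IL4I1 and 7.63, 7.53 and 7.43 on the 3 with it and fell by 0.75 ± 0.18 (adjusted p = 0.03), a smaller change with a tight spread. UHRF1, which guides DNMT1 to replicated DNA, fell by 1.23 ± 0.34 in shCtrl cells and by 1.19 ± 0.19 in the mean.

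CHAF1B, a subunit of the histone chaperone CAF-1, read 6.34, 6.58 and 6.71 on the 3 shCtrl arrays without IL4I1 and 6.50, 6.21 and 6.17 on the 3 with it. Its groups overlapped, and the change was -0.25 ± 0.32 in shCtrl cells and -0.51 ± 0.18 in the mean (adjusted p = 0.74 and 0.082). CHAF1A, the large CAF-1 subunit, fell by 0.99 ± 0.15 in the mean (adjusted p = 0.00044).

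In the last role, 3 of 4 genes fell both in shCtrl cells and in the mean over backgrounds. DTL, the receptor through which the CRL4 ubiquitin ligase destroys CDT1 at the fork, read 6.22, 7.41 and 7.04 on the 3 shCtrl arrays without IL4I1 and 4.12, 4.92 and 5.07 on the 3 with it. These 6 arrays were separated by group, and DTL fell by 2.18 ± 0.39 (adjusted p = 0.0051). CLSPN, or claspin, the adaptor of the replication checkpoint, read 5.31, 6.27 and 6.67 on the 3 shCtrl arrays without IL4I1 and 2.55, 4.41 and 3.82 on the 3 with it and fell by 2.49 ± 0.51 (adjusted p = 0.012). Replicate 1 with IL4I1 was the lowest of the 6 arrays. ESCO2, the S phase acetyltransferase of cohesin, fell by 3.28 ± 0.70 in shCtrl cells, the largest change among the 49 in that comparison (adjusted p = 0.015). Its shCtrl group means were 7.80 (SD 1.06) without IL4I1 and 4.52 (SD 1.14) with it. The latter was just above the limit of the lowest 1% of all group means (4.51). ESCO2 also varied the most within groups among the 49 (residual SD 0.98), so the size of its change is uncertain. TIPIN, a part of the fork protection complex, read 5.78, 6.82 and 6.08 on the 3 shCtrl arrays without IL4I1 and 5.63, 5.94 and 5.88 on the 3 with it, with overlap, and differed by -0.41 ± 0.25 (adjusted p = 0.42).

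**Figure D2:**
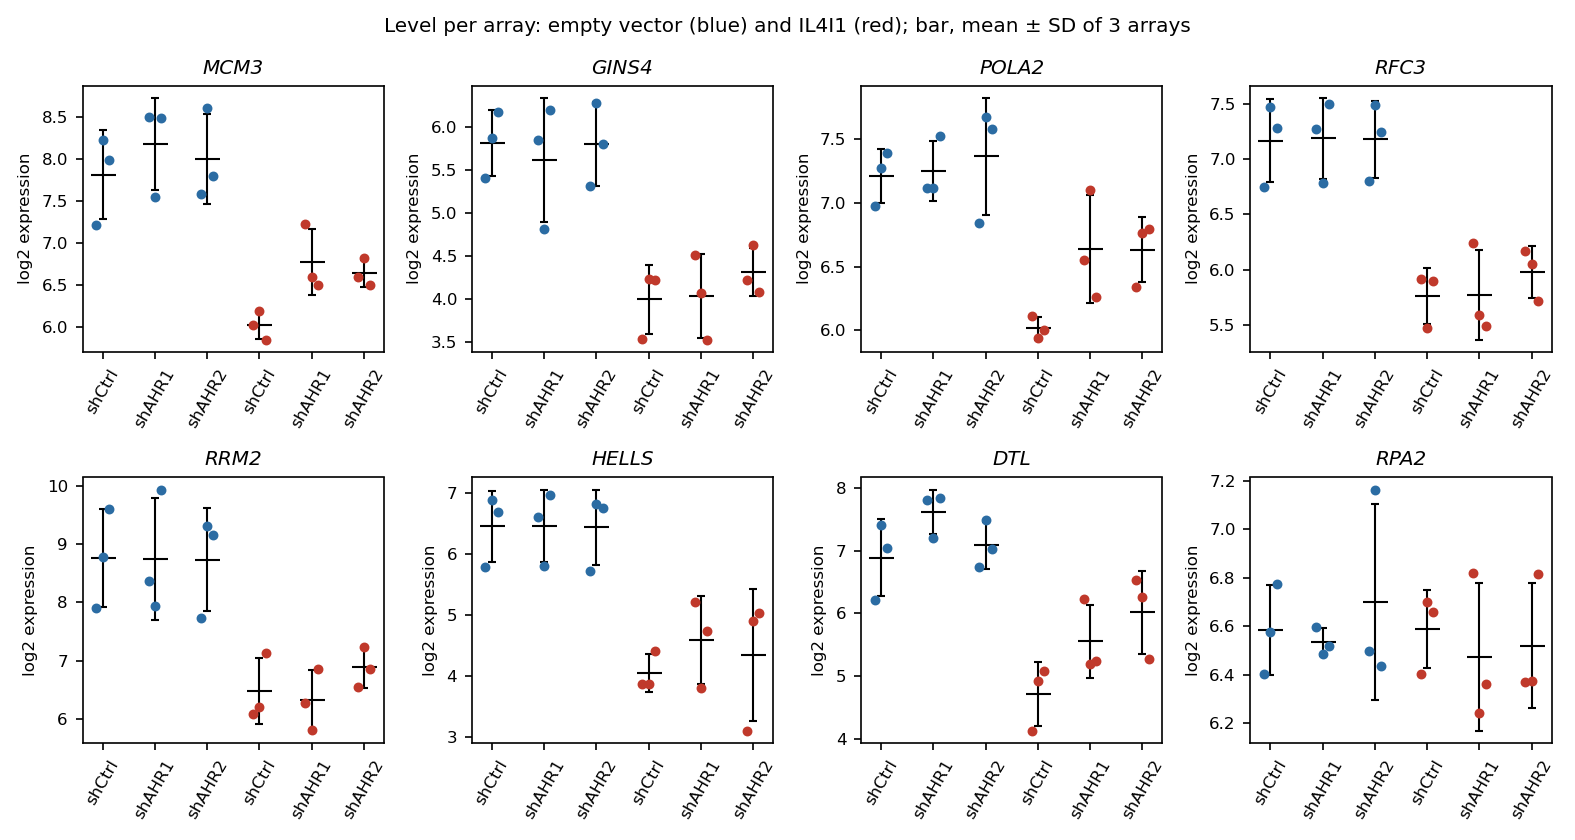
Log2 level on each array of the gene with the lowest adjusted p of each role and of RPA2, with 1 point per array and the mean ± SD of the 3 arrays as a bar, in the order empty vector with shCtrl, shAHR1 and shAHR2 (blue), then IL4I1 with shCtrl, shAHR1 and shAHR2 (red). The shCtrl groups with and without IL4I1 are separate in every panel except RPA2, where they are intermixed. The adjusted p used for the choice was that for IL4I1 in shCtrl cells, and RPA2 had the highest of its role. The separation or mixing of the shCtrl groups therefore reflects how the genes were chosen.

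Taken 1 background at a time, the number of called members ranged from 1 to 27 while the median change stayed between -1.07 and -0.88. With IL4I1 in shCtrl cells 27 members fell and 0 rose, against 2.56% of all genes that fell, and the median member change was -1.03 against 0.02 over all genes. In shAHR1 cells 16 fell and 0 rose, against 0.753% of all genes, with a median of -1.07 against -0.02. In shAHR2 cells 1 fell, RFC3, against 0.277% of all genes, with a median of -0.88 against 0.01. At an unadjusted p under 0.05 the members lower with IL4I1 numbered 39, 41 and 38 in the order shCtrl, shAHR1 and shAHR2, against 9.73%, 7.64% and 6.22% of all genes.

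RFC3 fell in all 3 backgrounds, by 1.41 ± 0.26 with shCtrl, 1.42 ± 0.26 with shAHR1 and 1.21 ± 0.26 with shAHR2 (adjusted p = 0.0064, 0.016 and 0.048). These 3 comparisons share no arrays, but they share 1 estimate of the spread of RFC3. Its call in shAHR2 cells was lost in 5 of the 6 fits that left out 1 array. Of the 27 members that fell in shCtrl cells and the 16 in shAHR1 cells, 14 were the same genes, and POLE and RFC2 were called in shAHR1 cells alone. MCM10, for example, changed by -1.70 ± 0.39, -2.28 ± 0.39 and -1.19 ± 0.39 in the order shCtrl, shAHR1 and shAHR2, and TK1 by -1.38 ± 0.35, -1.74 ± 0.35 and -1.40 ± 0.35. In 44 members (89.8%) the estimate was below 0 in all 3 backgrounds, against 23.5% of all genes.

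Single arrays moved these counts. In shCtrl cells the count was 9 without replicate 2 and 8 without replicate 3 of the empty vector cells, and 6 without replicate 1 and 14 without replicate 2 of the IL4I1 cells. MCM3, MCM5, POLA2, RFC3 and DTL were called whichever array was left out. In shAHR1 cells the count was 1 without replicate 1 and 0 without replicate 3 of the empty vector cells, and 0 without replicate 2 and 2 without replicate 3 of the IL4I1 cells. In shAHR2 cells 15 members were called without replicate 1 of the empty vector cells and 0 without any other of the 6 arrays. In the mean over backgrounds 37 of the 38 members were called whichever of the 18 arrays was left out, and CDC6 was the exception.

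**Figure D3:**
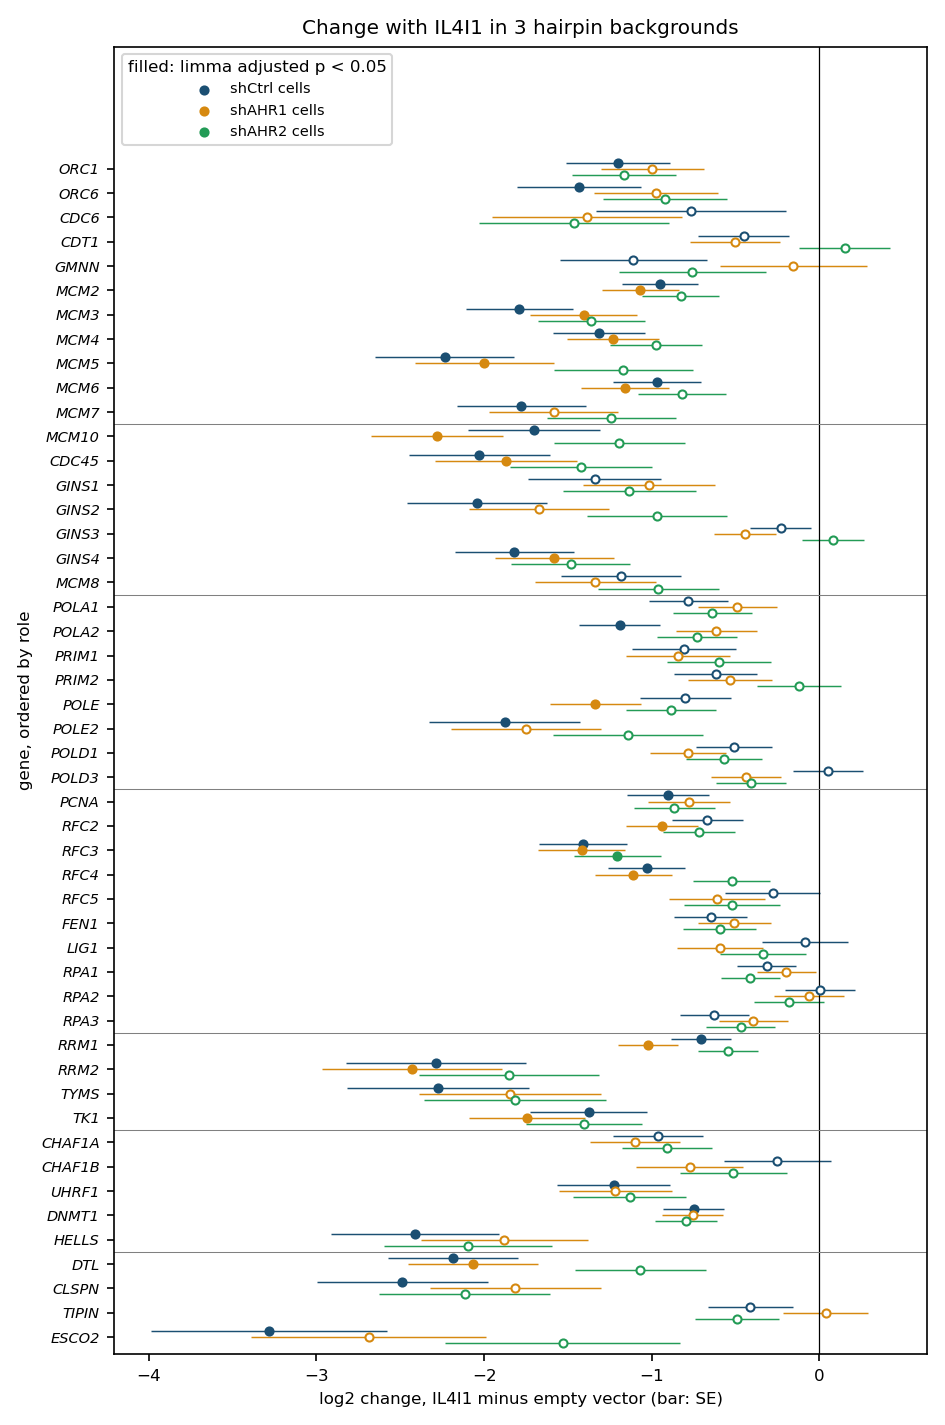
Log2 change with IL4I1 against empty vector for each of the 49 genes in shCtrl, shAHR1 and shAHR2 cells, with standard errors as bars, genes ordered by role, and filled points for a limma adjusted p under 0.05. Filled points number 27, 16 and 1, and 44 genes have all 3 points left of 0.

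The study's description sets IL4I1 cells with each hairpin against the shCtrl cells without IL4I1. For IL4I1 with shAHR1, 16 members fell and 0 rose, against 2.12% of all genes, and for IL4I1 with shAHR2, 6 fell and 0 rose, against 1.19%. Both share the 3 shCtrl arrays without IL4I1 with each other and with the IL4I1 comparison in shCtrl cells. RRM2 differed by -2.29 ± 0.54 with shCtrl, -2.44 ± 0.54 with shAHR1 and -1.88 ± 0.54 with shAHR2 against that baseline, CDC45 by -2.03 ± 0.42, -2.05 ± 0.42 and -1.66 ± 0.42, and HELLS by -2.41 ± 0.50, -1.87 ± 0.50 and -2.12 ± 0.50. CDC45 and HELLS were called in all 3, and RRM2 with shCtrl and shAHR1 (adjusted p = 0.069 with shAHR2). MCM5, in contrast, read -2.24 ± 0.41, -1.18 ± 0.41 and -0.94 ± 0.41, and was called with shCtrl alone. With shAHR1 and shAHR2 the comparison combines the hairpin difference with that of IL4I1. Group means of MCM5 without IL4I1 were 7.82, 8.65 and 8.05 in the order shCtrl, shAHR1 and shAHR2. With IL4I1 they were 5.59, 6.65 and 6.88. Against empty vector cells with the same hairpin, MCM5 was called in shAHR1 cells but not in shAHR2 cells. Against the shCtrl baseline, the 6 members called with shAHR2 were MCM2, CDC45, GINS1, GINS4, RFC3 and HELLS.

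Leaving out replicate 1 of the baseline cells raised the counts from 16 to 25 and from 6 to 15. Without replicate 2 of the baseline cells they were 5 and 0, and without replicate 3 they were 6 and 0. For shAHR1 the count was 3 without replicate 2 and 7 without replicate 3 of the IL4I1 cells, and for shAHR2 it was 1 without replicate 1 and 1 without replicate 3 of the IL4I1 cells.

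None of the 49 genes passed the threshold in the 4 hairpin comparisons, and with so few of all genes called this does not set the members apart. Without IL4I1, limma called 0 members under shAHR1 and 0 under shAHR2, against 0.406% and 0.734% of all genes in either direction, and at an unadjusted p under 0.05 there were 1 and 0, against 11% and 11.1% of all genes. With IL4I1 the counts were 0 and 0, against 1.55% and 1.26%, and 5 and 8 members, all of them higher, had an unadjusted p under 0.05, against 12.5% and 11.7% of all genes in either direction. The 95% interval of the change lay within 1 log2 unit of 0 in 32, 31, 31 and 24 of the 49 members in these 4 comparisons, and it reached past that in the remaining members. Each hairpin comparison shares its shCtrl arrays with the other hairpin.

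The 8 members higher under shAHR2 with IL4I1 by the unadjusted p were CDT1, MCM5, GINS2, POLA2, POLE2, RRM1, DTL and ESCO2. DTL read 4.12, 4.92 and 5.07 in IL4I1 cells with shCtrl and 6.52, 6.26 and 5.27 with shAHR2, a difference of 1.31 ± 0.39 (adjusted p = 0.13). MCM5 read 5.57, 5.52 and 5.68 with shCtrl, 7.51, 6.46 and 5.97 with shAHR1 and 6.79, 7.46 and 6.40 with shAHR2, differences of 1.06 ± 0.41 and 1.29 ± 0.41 (adjusted p = 0.28 and 0.16). The group means with a hairpin were above that with shCtrl for both genes, and neither difference passed the threshold.

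Whether IL4I1 changed these genes differently with a hairpin than with shCtrl was tested by the interaction. Limma called 0 members for shAHR1 and 0 for shAHR2, against 0% and 0.0129% of all genes, and 0 members reached an unadjusted p under 0.05 in either, against 5.8% and 4.31% of all genes. The median interaction was 0.09 and 0.21, and the 95% interval lay within 1 log2 unit of 0 in 19 and 18 members. DTL gave 1.12 ± 0.55 for shAHR2, with an interval of -0.05 to 2.28, and ESCO2 1.75 ± 0.99, with an interval of -0.35 to 3.86. The fewer calls with the hairpins are thus not shown to be a difference in the size of the change, and the intervals of most members reach past 1 log2 unit.

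**Figure D4:**
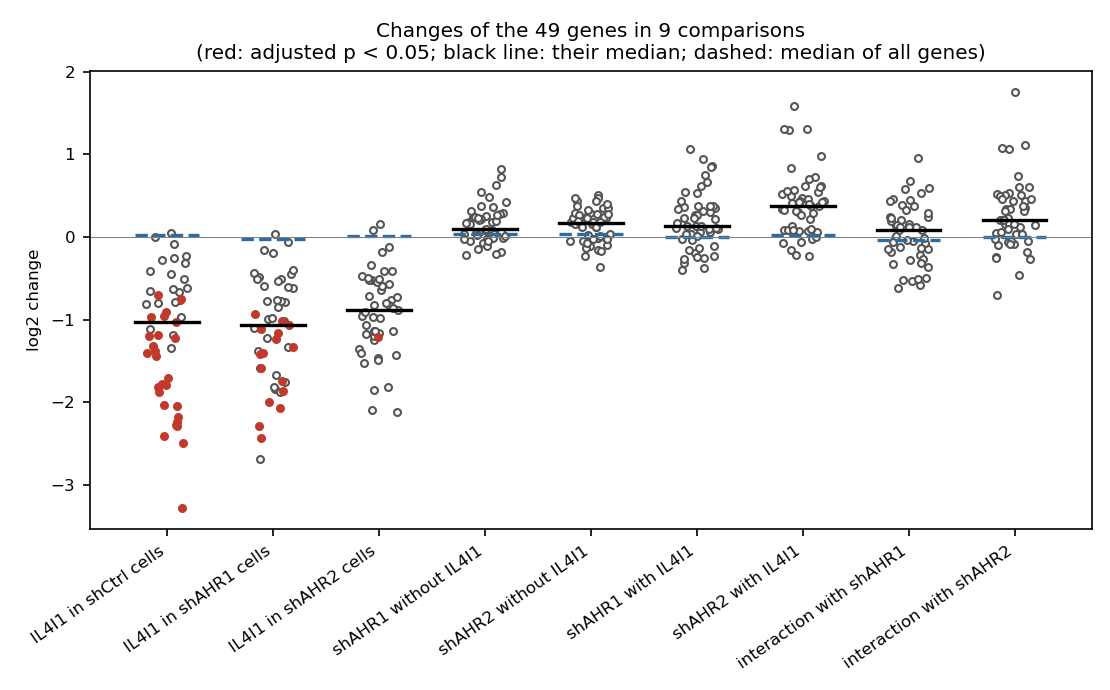
Log2 changes of the 49 members for IL4I1, for the hairpins and for their interaction, with 1 point per gene (red where the adjusted p is under 0.05), a black line at the members' median and a dashed line at the median of all genes. The medians are -1.03, -1.07 and -0.88 for IL4I1 in shCtrl, shAHR1 and shAHR2 cells and between 0.10 and 0.37 for the hairpins.

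Within groups, too, the members moved together from array to array. Over the deviations of the 18 arrays from their group means, the median correlation of the 1176 pairs of members was 0.511, against 0.0099 over all pairs of genes, and 96.1% of member pairs were above 0. Arrays share cells and processing across genes, so this is a description of these 18 arrays. MCM3 had the highest median correlation with the other members (0.70) and POLD1, the catalytic subunit of polymerase delta, the lowest (-0.01). The median residual SD was 0.376 for members and 0.274 for all genes. Replicate 2 of the empty vector cells with shAHR1 had 0 members above their group mean, as had replicate 1 of the empty vector cells with shAHR2, and replicate 1 of the empty vector cells with shCtrl had 6. In each empty vector group, 1 array was thus low for most of the members, and no array with IL4I1 was low to that extent, with 13 to 42 members above the group mean.

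Replication genes outside the 49 gave a more mixed picture. Both lists were chosen with earlier results of these data known, which limits a comparison between them. Of 38 other initiation and fork genes, 19 fell and 0 rose in the mean over backgrounds, where 7.21% of all genes fell. Their median change was -0.38. CDC7, the kinase that fires licensed origins, fell by 1.35 ± 0.23, and its activator DBF4 by 0.99 ± 0.23. TOP2A, the topoisomerase of dividing cells, fell by 2.24 ± 0.41, while TOP1, which is expressed through the cycle, differed by 0.05 ± 0.07 (adjusted p = 0.67). None of the origin subunits outside the 49, ORC2, ORC3, ORC4 and ORC5, was called, with differences of -0.25 ± 0.11, 0.09 ± 0.08, -0.09 ± 0.13 and -0.17 ± 0.10 (adjusted p = 0.15, 0.54, 0.71 and 0.3), and RFC1, the large loader subunit, differed by 0.01 ± 0.07. Under the hairpins 0 of the 38 were called in each of the 4 comparisons, where 0.406% to 1.55% of all genes were. At an unadjusted p under 0.05 there were 2 to 5 of the 38, against 11% to 12.5% of all genes.

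Of 23 measured other genes of nucleotide metabolism among 26 listed, 6 fell and 1 rose in the mean over backgrounds. The genes that fell include SAMHD1 (by 0.52 ± 0.09), which is not a synthesis enzyme. Of all genes, 7.21% fell there. MTHFD1, an enzyme of the folate cycle, fell by 0.81 ± 0.12, DTYMK, the thymidylate kinase, by 0.59 ± 0.16, and DCK, the deoxycytidine kinase, by 0.49 ± 0.14. RRM2B, the reductase subunit induced by p53, rose by 0.54 ± 0.14 (adjusted p = 0.014), opposite to RRM2. De novo purine genes were not called, among them GART at -0.02 ± 0.11, PAICS at 0.16 ± 0.08 and ATIC at 0.05 ± 0.09.

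Cell cycle genes moved beside the members. Of 17 measured of 18 listed, 11 fell and 1 rose in the mean over backgrounds, where 7.21% of all genes fell. E2F1, an activator of replication genes, fell by 1.08 ± 0.16, the repressors E2F7 and E2F8 by 1.48 ± 0.13 and 1.71 ± 0.23, cyclin gene CCNA2 by 2.69 ± 0.40 and the proliferation marker MKI67 by 2.12 ± 0.32. CDKN1A, the cell cycle inhibitor p21, rose by 0.65 ± 0.13 (adjusted p = 0.004). CCNE1, the gene of cyclin E1, differed by 0.00061 ± 0.098, whereas CCNE2, the gene of cyclin E2, fell by 1.46 ± 0.35 (adjusted p = 0.011). E2F7 rose under shAHR2 by 1.27 ± 0.22 without and 1.03 ± 0.22 with IL4I1 (adjusted p = 0.013 and 0.031), in the comparisons in which 0 members were called. Of 8 measured glial and glioma line markers, 2 fell, against 7.21% of all genes, and 1 rose in the mean over backgrounds. SLC1A3 and PDGFRA fell by 1.01 ± 0.11 and 1.13 ± 0.15, and OLIG2 rose by 0.61 ± 0.19. GFAP, VIM, NES, CD44 and AQP4 were not called in that mean, although GFAP fell by 0.74 ± 0.20 in shCtrl cells (adjusted p = 0.042). Of the markers of other cell types, 0 of 4 epithelial, 0 of 2 leukocyte, 0 of 2 endothelial and 0 of 2 neuron markers were called in the mean over backgrounds by limma, and 1, 0, 0 and 0 had an unadjusted p under 0.05, against 25.5% of all genes. The part of these genes in the changes of the members was not tested.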

How the data were processed

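Total RNA of U-87MG cells was measured on 18 arrays, 3 in each of 6 groups. The authors deposited log2 values for each probe set, made with oligo and RMA per the submitters' processing notes, which give no versions. The scale was read from the values. Of 18913 probe sets, 15598 had 1 gene symbol, 870 several and 2445 none listed, and the brightest probe set per gene was kept, which gave 15529 genes. Old symbols were updated through the RefSeq table in 1173 cases.

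Genes were fitted with limma 3.58.1 in R 4.3.3, as 6 group means over 18 arrays, with 12 residual degrees of freedom. P-values were adjusted by Benjamini-Hochberg over all 15529 genes, and errors of changes are standard errors. With 3 arrays per group the median standard error was 0.220 over all genes and 0.286 over the members. The fit was tested on simulated data.

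The members and the other gene lists were chosen with earlier results of these data known. In each role the genes named with every array value were those with the lowest, second lowest and highest adjusted p for IL4I1 in shCtrl cells, and the other members and listed genes are given as examples. Alternatives were the groups compared alone, a trended robust fit, a replicate block, array weights, median centring, a filter on dim genes, averaged probe sets, adjustment over all probe sets, and leaving out each array.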

Additional observations from a re-analysis of the deposited data

How the results depend on the processing

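In the mean over the 3 hairpin backgrounds the count of members that fell was 38, and it was 32 to 43 under the other settings and 37 to 42 when 1 array was left out. The counts of 0 for the hairpins and interactions were 0 under every setting run. For IL4I1 in shCtrl cells the count of 27 ranged from 6 to 30 when 1 array was left out and was 9 with only the compared groups in the fit. In shAHR1 cells 16 ranged from 0 to 21 and was 1 with only those groups. In shAHR2 cells 1 ranged from 0 to 15, and it was 0 with only those groups, 6 with a trended robust fit, 20 with array weights, 4 without dim genes (37 members left) and 0 with all probe sets adjusted together. Against the shCtrl cells without IL4I1, 16 for IL4I1 with shAHR1 ranged from 3 to 25 and 6 for IL4I1 with shAHR2 from 0 to 15, and they were 5 and 0 with only those groups. A fit of the compared groups alone has fewer arrays to estimate the spread. The causes of the other shifts were not tested. Arrays of the same replicate number correlated at -0.13 to 0.32 over all probe sets or genes in their deviations from the group means. Arrays of different numbers were not compared, so whether the numbers pair the samples was not settled. RRM2 read higher in replicate 3 than in replicate 1 of every group. So did TOP2A, CCNA2, MKI67, E2F1 and DBF4 outside the members, while other genes, among them MCM3, MCM5 and E2F8, did not. The cause of this shared pattern was not tested. With the replicate number as a block, the count in shAHR2 cells was 5 and no other count moved by over 1.5 times. Changes close to 0 that were not called turned sign in some settings. With array weights these were RPA2 in shCtrl cells (-0.014) and, in shAHR2 cells, CDT1 (-0.0063) and GINS3 (-0.021). With 1 array left out, the change in shCtrl cells ranged from -0.088 to 0.098 for RPA2, -0.65 to 0.0037 for RFC5 and -0.32 to 0.13 for LIG1. In shAHR1 cells it ranged from -0.72 to 0.18 for GMNN, -0.24 to 0.28 for TIPIN and -0.23 to 0.056 for RPA2. In shAHR2 cells it ranged from -0.13 to 0.47 for CDT1, -0.040 to 0.29 for GINS3, -0.23 to 0.023 for PRIM2 and -0.33 to 0.052 for RPA2. In the mean over backgrounds 0 of the 49 members turned sign in any setting run.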
